A study of Mus musculus with 6 samples.

Results

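Transcripts of the contractile actin cytoskeleton, of serum response factor and of YAP targets were followed across mouse embryonic stem (ES) cells of 3 genotypes. The genotypes were cells homozygous for a knock-in named NcGFP (ki/ki), cells heterozygous for it (ki/+) and the wild type line W4, with 2 arrays each, numbered replicate 1 and replicate 2. The members were 10 genes, Acta2, Tagln, Cnn1, Myl9, Tpm1, Tpm2, Srf, Ccn1, Ccn2 and Ankrd1, taken with every probe set that carried only the gene's own symbol, 23 of the 45101 probe sets on the array. All cultures shared medium with LIF and serum on thinly seeded EMFI plates, and EMFI is taken to mean a feeder layer of embryonic fibroblasts. Per the series' design text the 2 arrays of a genotype came from independent experiments, and the labels do not say whether a knock-in genotype is 1 clone or several. The labels do not spell out NcGFP either. From what is known of the study it is taken to be an N-cadherin cDNA fused to green fluorescent protein, inserted at the E-cadherin gene Cdh1.

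Acta2, Tagln, Cnn1, Myl9, Tpm1 and Tpm2 encode parts of the actin and myosin apparatus that lets fibroblasts and smooth muscle cells contract. Serum response factor, encoded by Srf, binds a DNA element called the CArG box in front of many such genes, and its cofactors of the MRTF family are released to the nucleus when free actin monomer is used up by filament assembly. YAP and TAZ are coactivators that are kept out of the nucleus by Hippo kinases in crowded cells and act through TEAD factors in spread cells under tension. Ccn1, Ccn2 and Ankrd1 are their most used readouts, and the same genes also respond to SRF. Contacts made by cadherins are one of the inputs that restrain YAP.

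The deposited values are intensities, and all levels below are their log2. A probe set was tested when it exceeded a log2 value of 4 on at least 2 of the 6 arrays, which 37950 did. Of the 23 member probe sets 22 passed, and the one left out was the dimmest of the 3 Acta2 probe sets, which stayed between 3.43 and 4.44. For each gene the brightest tested probe set was used, which gave 16706 genes. The lowest log2 value on an array was between 2.45 and 2.53. The pluripotency factor genes Pou5f1 and Sox2, which define ES cells, were bright on every array, from 12.60 to 13.08 and from 11.98 to 12.37. Cdh1 had 9.77 and 11.09 for ki/ki, 11.66 and 10.62 for ki/+, and 12.17 and 12.13 for wild type, so the 2 knock-in genotypes overlapped in the gene that carries the insertion, and genotypes are given as labelled. The array's 18S ribosomal RNA controls had mean log2 values of 11.36 and 11.12 in ki/ki, 11.57 and 11.54 in ki/+, and 7.22 and 7.12 in wild type. They split the arrays as knock-in and wild type do. In the comparisons with wild type below, their part cannot be told apart from genotype and was not tested. With 2 arrays a genotype, the smallest two-sided p of an exact permutation test is 0.333, and the tests given are therefore limma's, which share the spread over all probe sets. Whether the independent experiments were separate cultures is not stated, so p-values measure the spread between these arrays.

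Smooth muscle actin and its partners differed more between the 2 ki/ki arrays than between the means of ki/ki and wild type. Acta2, the actin of smooth muscle and of activated fibroblasts, had log2 intensities of 12.72 and 14.08 in ki/ki, 11.10 and 12.21 in ki/+, and 12.71 and 12.89 in wild type. Tagln, which encodes the actin-binding protein transgelin, had 11.88 and 13.41 in ki/ki, 10.16 and 11.39 in ki/+, and 11.81 and 12.01 in wild type. In both genes ki/ki replicate 2 was the highest array, ki/ki replicate 1 lay between the wild type arrays, and both ki/+ arrays lay below wild type. Cnn1, which encodes calponin, an inhibitor of the myosin ATPase, had 7.35 and 9.98 in ki/ki, 6.08 and 6.99 in ki/+, and 7.46 and 7.58 in wild type. Its 2 ki/ki arrays were thus 6.16-fold apart, the widest such ratio among the brightest probe sets of the members, while its wild type arrays differed by 0.12. Myl9, which encodes a regulatory light chain of non-muscle and smooth muscle myosin, had 10.08 and 12.15 in ki/ki, 8.21 and 10.12 in ki/+, and 10.30 and 10.44 in wild type. Here ki/ki replicate 1 and ki/+ replicate 2 differed little and both lay below wild type, so that the groups ki/ki and ki/+ overlapped.

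**Figure D1:**
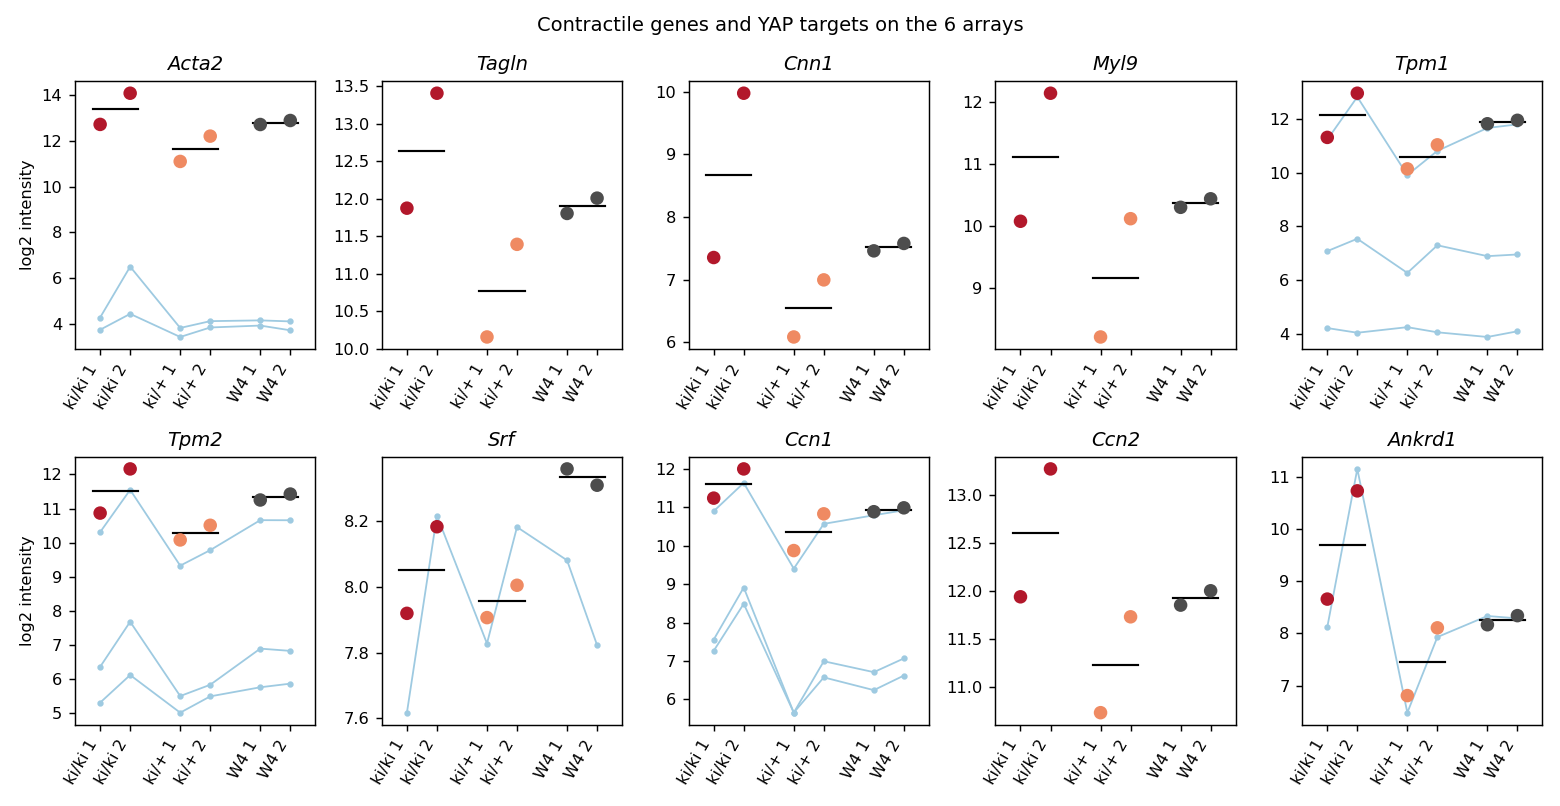
Log2 intensity (vertical axis) of the 10 members on the 6 arrays (horizontal axis). Large points are the brightest probe set of each gene, black lines the mean of the 2 arrays of a genotype, and pale blue lines its other probe sets. At the brightest probe set of every member but Srf, ki/ki replicate 2 was the highest of the 6 arrays and ki/+ replicate 1 the lowest, and the wild type arrays lay close together.

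The tropomyosins, rod-shaped proteins that lie along actin filaments and gate their binding to myosin, behaved alike at their bright probe sets. Tpm1 had 11.33 and 12.98 in ki/ki, 10.15 and 11.05 in ki/+, and 11.84 and 11.96 in wild type. Tpm2 had 10.87 and 12.16 in ki/ki, 10.08 and 10.51 in ki/+, and 11.25 and 11.43 in wild type. In both genes 1 ki/ki array lay below wild type and the other above it, and both ki/+ arrays lay below wild type. The probe sets of Tpm1 did not all follow this pattern. The second brightest differed from the brightest by little, with 11.24 and 12.84 in ki/ki, 9.92 and 10.82 in ki/+, and 11.68 and 11.81 in wild type. The next, with 7.08 and 7.54 in ki/ki, 6.27 and 7.30 in ki/+, and 6.89 and 6.96 in wild type, was the only one of Tpm1 with both ki/ki arrays above wild type. The dimmest stayed between 3.87 and 4.24, near the limit set for testing. Which Tpm1 transcripts each probe set measures was not resolved here. The other 3 probe sets of Tpm2 had their lowest value in ki/+ replicate 1 and their highest in ki/ki replicate 2, as the brightest did.

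Promoter windows from RefSeq (assembly GRCm38.p6, 250 bases before to 50 after a transcript start, both strands searched) were at hand for 8 of the 10 members, all but Tagln and Ccn2. The CArG box in its strict form was found in the windows of Myl9 and Srf, against 1.63% of 32851 windows. A form with 1 G or C inside the A and T core was found in those of Acta2 and Myl9, against 8.50% of windows. The stretches are shown because they hold the element through which SRF is known to act, with the match in capitals. They lie on the minus strand for Acta2, at chr19:34255438-34255467 and chr19:34255388-34255417, and on the plus strand for Myl9, at chr2:156775293-156775322 and chr2:156775355-156775384. The annotated Acta2 gene reaches 212 bases before the start used, so both of its matches lie within it, and that of Myl9 reaches 56 bases before.
Acta2, match starting 84 bases before the transcript start: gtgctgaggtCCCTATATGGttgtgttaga
Acta2, match starting 34 bases before: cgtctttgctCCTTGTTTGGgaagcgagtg
Myl9, strict match starting 161 bases before: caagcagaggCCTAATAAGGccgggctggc
Myl9, match starting 99 bases before: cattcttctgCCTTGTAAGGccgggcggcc
Acta2 and Myl9 hold such matches, and Cnn1, Tpm1 and Tpm2, whose windows hold none, were highest and lowest on the same arrays. Srf, which also holds strict matches, was highest in wild type replicate 1 at its brightest probe set. Whether the matches bear on these levels was not tested. A match is a string of letters and no evidence of binding, and its absence from so short a window says nothing of the factor.

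The gene of the factor itself varied little. Srf had 7.92 and 8.18 in ki/ki, 7.91 and 8.005 in ki/+, and 8.36 and 8.31 in wild type at its brightest probe set. All 4 knock-in arrays lay below both wild type arrays there, by at most 0.43 from the wild type mean. The second probe set of Srf had 7.62 and 8.22 in ki/ki, 7.83 and 8.18 in ki/+, and 8.08 and 7.82 in wild type, with overlapping groups. The mean difference of Srf to wild type was -0.28 (log2, SE 0.16, limma adjusted p = 0.668) in ki/ki and -0.38 (SE 0.16, adjusted p = 0.475) in ki/+ at the first probe set, against -0.035 and 0.053 at the second. The Srf window, on the minus strand of chromosome 17, held 2 strict CArG boxes, shown because SRF is known to bind in front of its own gene. The annotated gene reaches 2105 bases before the transcript start used, so both boxes lie within it.
Srf, chr17:46556225-46556254: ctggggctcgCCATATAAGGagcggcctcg
Srf, chr17:46556205-46556234: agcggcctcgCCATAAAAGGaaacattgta

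Among the YAP targets, Ccn1 and Ccn2 encode secreted matricellular proteins of one family, and Ankrd1 encodes an ankyrin repeat protein of muscle and of the nucleus. Ccn1 had 11.24 and 11.999 in ki/ki, 9.87 and 10.83 in ki/+, and 10.89 and 10.99 in wild type, so the 3 groups did not overlap. Ccn2 had 11.94 and 13.28 in ki/ki, 10.73 and 11.73 in ki/+, and 11.85 and 12.003 in wild type, with ki/ki replicate 1 between the wild type arrays. Ankrd1 had 8.65 and 10.73 in ki/ki, 6.81 and 8.10 in ki/+, and 8.16 and 8.34 in wild type, and the groups did not overlap. Its second probe set gave 8.12 and 11.15 in ki/ki, 6.48 and 7.93 in ki/+, and 8.33 and 8.29 in wild type. There ki/ki replicate 1 lay below wild type, where the first probe set had it above, so the place of that array against wild type rests on the probe set. The 2 dim probe sets of Ccn1 stood at 7.56 and 8.91 and at 7.26 and 8.49 in ki/ki. In ki/+, where both overlapped wild type, they stood at 5.65 and 6.99 and at 5.66 and 6.57. In wild type they stood at 6.71 and 7.07 and at 6.24 and 6.62, so both ki/ki arrays lay above wild type by 0.67 or more from its mean, against 0.30 and 1.06 at the brightest probe set. The second brightest Ccn1 probe set had ki/ki replicate 1 between the wild type arrays, 0.041 from their mean.

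The upstream windows of Ccn1 and Ankrd1 are shown because TEAD factors are known to bind the letters GGAATG or, on the other strand, CATTCC. These were found in the windows of 4 of the 8 members, Ccn1, Ankrd1, Acta2 and Tpm1, against 14.7% of all windows, and no match overlapped a CArG box. The capitals mark them within the 250 bases before the annotated start, on the minus strand at chr3:145649986-145650235 and chr19:36119845-36120094.
Ccn1: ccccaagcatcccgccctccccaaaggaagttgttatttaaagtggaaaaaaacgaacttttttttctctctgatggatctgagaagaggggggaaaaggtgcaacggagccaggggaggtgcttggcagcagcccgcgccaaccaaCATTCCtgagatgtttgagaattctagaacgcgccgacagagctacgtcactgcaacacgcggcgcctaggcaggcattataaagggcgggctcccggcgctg
Ankrd1: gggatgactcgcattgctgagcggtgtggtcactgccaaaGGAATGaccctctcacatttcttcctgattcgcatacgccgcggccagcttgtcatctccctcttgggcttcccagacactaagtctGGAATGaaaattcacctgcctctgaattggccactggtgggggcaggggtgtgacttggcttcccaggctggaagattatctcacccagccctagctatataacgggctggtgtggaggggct
The annotated genes of Acta2 and Tpm1 reach 212 and 459 bases before the starts used, so their matches lie within the annotated genes. The stretches of these other matches were, for Acta2 at chr19:34255502-34255531 and Tpm1 at chr9:67049252-67049281, both on the minus strand, as follows.
Acta2: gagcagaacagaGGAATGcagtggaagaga
Tpm1: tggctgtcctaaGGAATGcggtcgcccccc

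The comparison of ki/ki with ki/+ cells asked what a second copy of the knock-in goes with. All members but Srf, 9 of 10, had mean differences over 1 log2 unit, between 1.22 and 2.23, which 2.75% of all genes had, and for 8 of the 10 both ki/ki arrays lay above both ki/+ arrays, which 15.8% of all genes did. Ankrd1 averaged 9.69 ± 1.46 in ki/ki and 7.46 ± 0.92 in ki/+ (SD, n = 2 each), a difference of 2.23 (SE 0.69, limma adjusted p = 0.429). The difference was 2.12 (SE 0.78, adjusted p = 0.455) for Cnn1, 1.75 (SE 0.50, adjusted p = 0.429) for Acta2 and 1.38 (SE 0.48, adjusted p = 0.443) for Ccn2. None of the 22 member probe sets passed limma's adjusted threshold of 0.05, and 0% of all probe sets did. At an unadjusted p below 0.05 there were 16 of 22, all higher in ki/ki, where the share higher over all probe sets was 6.09%, and no other tool was run. The median difference over the 10 members was 1.65, against -0.049 over all genes. Without ki/ki replicate 1, 16 member probe sets of 9 genes passed in limma as higher in ki/ki, as did 8.41% of all probe sets, and without ki/ki replicate 2, 0 did while 0.126% of all probe sets were called higher. Such a fit has 1 ki/ki array and assumes for it the spread of the others.

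Setting ki/ki against wild type asked what differs in homozygous cells. The members' mean differences ran from -0.28 for Srf to 1.44 for Ankrd1, over 1 log2 unit in 2 of 10 (0.640% of all genes), with a median of 0.68 over the 10 members and -0.0096 over all genes. For Ccn1 and Ankrd1 both ki/ki arrays lay above both wild type arrays, which 17.3% of all genes did, and for Srf both lay below, which 21.2% did. Ankrd1 differed by 1.44 (SE 0.69, limma adjusted p = 0.614), Cnn1 by 1.15 (SE 0.78, adjusted p = 0.734), Ccn1 by 0.68 (SE 0.36, adjusted p = 0.656) and Acta2 by 0.60 (SE 0.50, adjusted p = 0.794). In limma 0 of the 22 member probe sets passed, as did 0% of all probe sets. At an unadjusted p below 0.05 there were 2 of 22, the dim Ccn1 probe sets at 1.35 and 1.45, both higher in ki/ki, where 4.04% of all probe sets were. Without ki/ki replicate 2 the median over the members was -0.12 with 3 of 10 above 0, and without ki/ki replicate 1 it was 1.31. In the fit without ki/ki replicate 1, 5 member probe sets of Acta2, Ankrd1, Ccn1 and Cnn1 passed as higher in ki/ki (limma adjusted p below the threshold), where 2.76% of all probe sets were called higher. For Acta2 that was its dim second probe set, at 4.28 and 6.50 in ki/ki and 4.15 and 4.11 in wild type. Ccn1 likewise passed only at probe sets other than its brightest.

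The comparison of ki/+ with wild type asked what differs with 1 copy of the knock-in. All 10 members had both ki/+ arrays below both wild type arrays at their brightest probe set, which 26.4% of all genes did. Over all tested member probe sets it was 16 of 22, against 26.2% of all probe sets. The 2 comparisons with wild type share its arrays. The differences ran from -1.30 for Tpm1 to -0.38 for Srf, past -1 in 5 of 10 (1.87% of all genes), with a median of -1.01 over the members and 0.027 over all genes. Tpm1 averaged 10.60 ± 0.64 in ki/+ and 11.90 ± 0.09 in wild type (SD, n = 2 each), a difference of -1.30 (SE 0.54, limma adjusted p = 0.473). It was -1.21 (SE 0.79, adjusted p = 0.642) for Myl9, -1.15 (SE 0.50, adjusted p = 0.496) for Acta2, -1.04 (SE 0.40, adjusted p = 0.447) for Tpm2 and -0.58 (SE 0.36, adjusted p = 0.628) for Ccn1. Again 0 of 22 member probe sets passed in limma, as did 0% of all probe sets, and 6 of 22 had an unadjusted p below 0.05, all lower in ki/+, against 5.97% of all probe sets lower. In the fit with only the 4 arrays of ki/+ and wild type, 3 probe sets of Tpm2 passed as lower, where 2.40% of all probe sets were called lower. That fit does not use the wider spread of the ki/ki arrays. Without ki/+ replicate 1 the median over the members was -0.42.

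**Figure D2:**
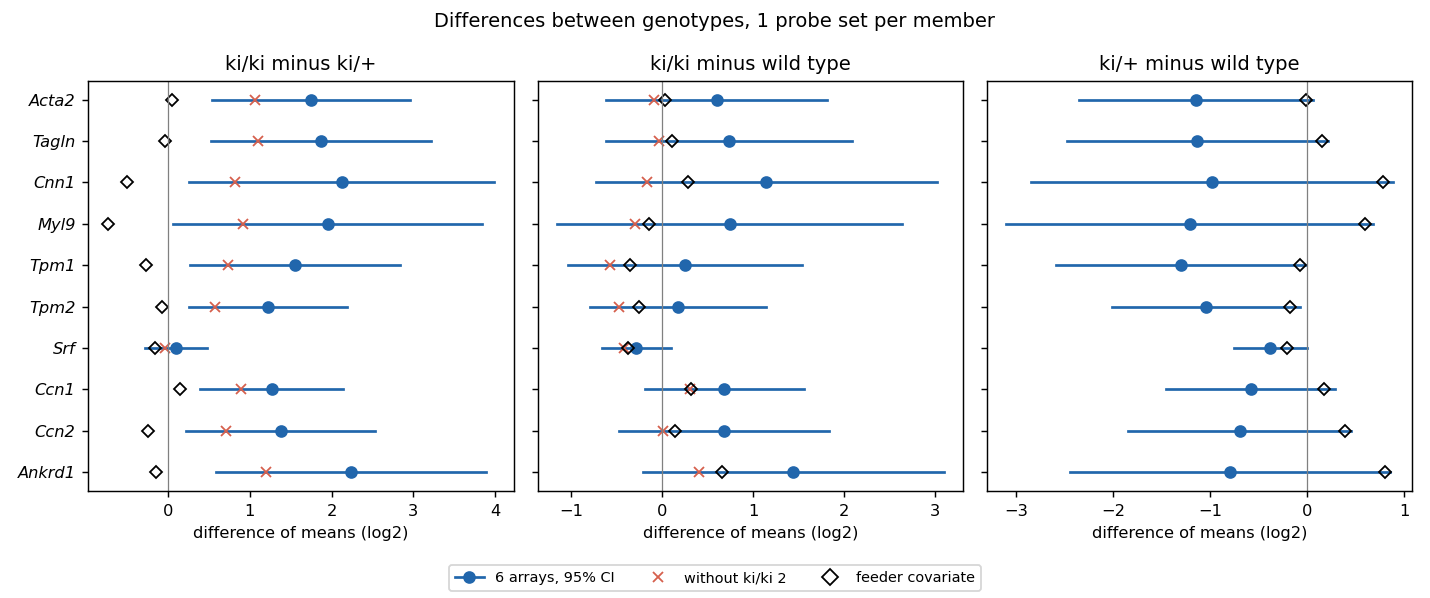
Difference of means (log2, horizontal axis) for each member (vertical axis) in the 3 comparisons. Points and bars are the limma estimate from 6 arrays with its 95% confidence interval, crosses the estimate without ki/ki replicate 2, and diamonds the estimate with the array's feeder median as a covariate. Between ki/ki and wild type, the crosses of Acta2, Tagln, Cnn1, Myl9, Tpm1, Tpm2 and Srf lie below 0.

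By mean level at the brightest probe sets the order was ki/ki, wild type, ki/+ for all members but Srf, and no neighbouring pair in it passed limma's test. The dimmest probe set of Tpm2 had ki/ki (5.72) below wild type (5.82), and that of Tpm1 had ki/+ highest (4.14). For Tpm1 and Tpm2 the means of ki/ki and wild type differed by 0.25 and 0.18, less than the SD of 1.17 and 0.92 between the 2 ki/ki arrays. Of the 10 members, 8 were over 1 log2 unit apart between the ki/ki arrays, all higher in replicate 2, and 4.56% of all genes were. Between the ki/+ arrays 5 were, again higher in replicate 2, with 1.10% of all genes, and between the wild type arrays 0 were, as in 0% of all genes. Myl9 had gaps of 2.07 and 1.91 in ki/ki and ki/+, and Ankrd1 of 2.07 and 1.30, while Ccn1 had 0.76 and 0.96. The wild type gaps of these genes were 0.14, 0.17 and 0.10. For 9 of 10 members ki/ki replicate 2 was the highest and ki/+ replicate 1 the lowest of the 6 arrays, an order that 10.0% of all genes showed.

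Markers of fibroblasts, the cells of the feeder layer, moved with the members from array to array. Of 30 listed markers, among them collagen genes, Dcn, Lum and Thy1, 29 were measured. Their median deviation from the gene means was 0.010 and 1.43 in ki/ki, -1.36 and -0.47 in ki/+, and 0.091 and 0.27 in wild type. The members' median deviation was -0.060 and 1.44 in ki/ki, -1.44 and -0.37 in ki/+, and 0.059 and 0.21 in wild type. The log2 of the markers' summed intensity was 14.48 and 16.00 in ki/ki, 13.05 and 13.96 in ki/+, and 14.53 and 14.73 in wild type. Of Col1a1, Col3a1, Dcn, Lum and Thy1 the lowest value on any array was 5.52, for Lum in ki/+ replicate 1. Col1a1, the main fibrillar collagen gene, stood at 8.73 and 10.83 in ki/ki, 6.94 and 7.72 in ki/+, and 9.59 and 9.96 in wild type. Between replicates the markers differed by a median of 1.497 in ki/ki, 0.76 in ki/+ and 0.17 in wild type, and the members by 1.45, 0.98 and 0.14. In RNA from a whole culture, fewer cells of a type and less RNA per cell cannot be told apart.

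**Figure D3:**
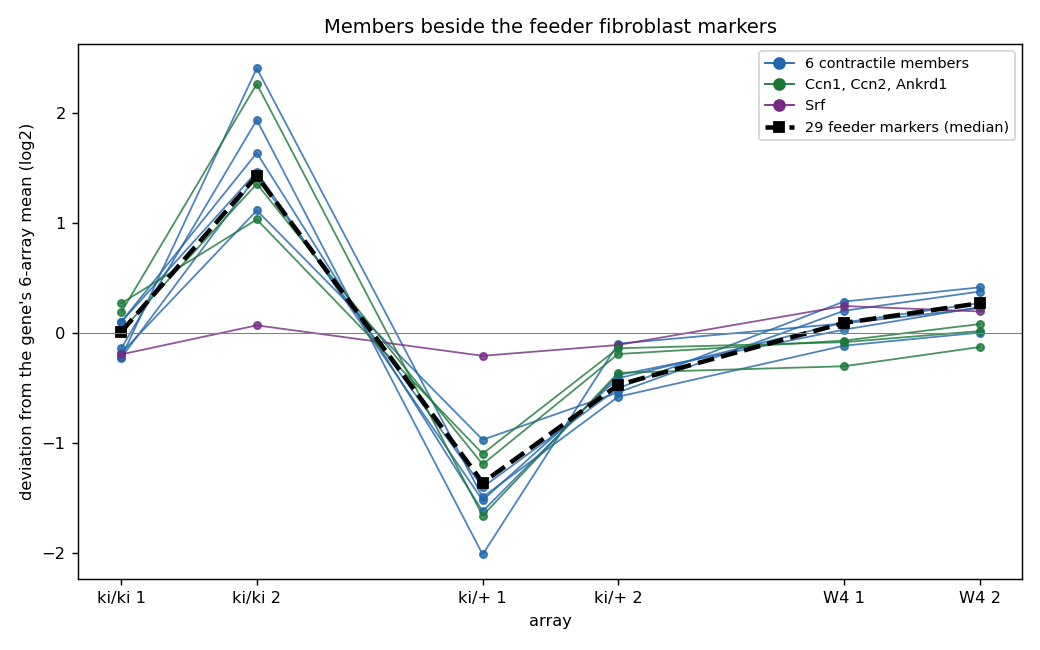
Deviation of each gene from its own mean over the 6 arrays (log2, vertical axis) by array (horizontal axis). Blue lines are the 6 contractile members, green lines Ccn1, Ccn2 and Ankrd1, the purple line Srf, and the dashed black line the median of the 29 feeder markers, which runs through the members from -1.36 in ki/+ replicate 1 to 1.43 in ki/ki replicate 2.

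When limma also held each array's feeder median as a term, the members' median difference was -0.16 between ki/ki and ki/+, 0.072 between ki/ki and wild type, and 0.16 between ki/+ and wild type. In the first of these comparisons Acta2 differed by 0.045, Tagln by -0.045 and Ccn1 by 0.14, against 1.75, 1.87 and 1.27 without the covariate. Between ki/ki and wild type Ankrd1 differed by 0.66 (limma adjusted p = 0.152), against 1.44 without the covariate. Between ki/+ and wild type the direction turned for Cnn1, to 0.79 (limma adjusted p = 0.527) against -0.98 without it, and for Ankrd1, to 0.80 (limma adjusted p = 0.376) against -0.79. No member passed in these fits, in which 0 probe sets passed in all. The covariate and the genotypes overlap, since ki/+ held the lowest marker levels.

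The medians of other cell type markers did not follow those of the members. The 10 heart and skeletal muscle markers, among them Tnnt2 and Myod1, were dim, between 3.90 and 6.26 on all arrays. Signals this close to the log2 limit of 4 set for testing could hardly have followed any pattern. The muscle markers' median deviations were 0.094 and -0.21 in ki/ki, 0.049 and 0.13 in ki/+, and 0.0016 and -0.059 in wild type. Myh11, the myosin heavy chain that defines mature smooth muscle and a gene singled out after its values were seen, stood at 5.17 and 4.53 in ki/ki, 5.08 and 4.63 in ki/+, and 4.91 and 5.003 in wild type, likewise near that limit. Myh11 comes from a list of 34 further contractile genes, on which the smooth muscle actin gene Actg2, likewise singled out, did follow the members. Actg2 had 7.58 and 10.47 in ki/ki, 6.28 and 7.36 in ki/+, and 7.94 and 8.20 in wild type. Of that list 27 genes were highest in ki/ki replicate 2, as were 26.2% of all genes. The 12 pluripotency genes had median deviations of 0.096 and -0.22 in ki/ki, 0.19 and -0.050 in ki/+, and -0.031 and -0.10 in wild type. This median was lowest in the array where the members were highest, but the genes did not move as one. Without ki/ki replicate 1, 5 of the 12 were above wild type in ki/ki and 7 below. Singled out after their values were seen, Zfp42 had 10.08 and 11.80 in ki/ki, and Nanog 13.08 and 11.92.

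A list of 34 further genes of the contractile cytoskeleton had smaller median differences than the members. In ki/ki against ki/+, 29 were above 0 with a median difference of 0.75, in ki/ki against wild type 25 were above 0 with a median of 0.23, and in ki/+ against wild type 29 were below 0 with a median of -0.43. None passed limma's adjusted threshold in the 6-array fit. Without ki/ki replicate 2 the median of ki/ki against wild type turned to -0.053, with 14 above and 20 below 0, and with the feeder covariate it was -0.0086. With ki/ki replicate 1 left out, the median was 1.09 in ki/ki against ki/+, with 28 above and 6 below 0, and 0.64 in ki/ki against wild type. Limma also called genes of this list in these comparisons, not counted here because a single ki/ki array was left. With either ki/ki array left out, limma called 7 of 34 lower in ki/+ against wild type, where 2.40% of all probe sets were called lower. Flna, which encodes the actin crosslinker filamin A, had 10.24 and 10.92 in ki/ki, 8.92 and 9.41 in ki/+, and 9.92 and 10.07 in wild type, so the groups did not overlap. Vcl, for vinculin, which links actin to cadherin and integrin adhesions, had 10.42 and 11.49 in ki/ki, 9.52 and 10.31 in ki/+, and 10.24 and 10.46 in wild type. Mylk, for the kinase that activates myosin light chains, had 5.78 and 7.57 in ki/ki, 5.35 and 5.55 in ki/+, and 5.73 and 6.03 in wild type, high in a single array. Myh9, for the non-muscle myosin heavy chain IIA, had 11.19 and 12.003 in ki/ki, 9.95 and 10.97 in ki/+, and 11.23 and 11.47 in wild type. The cytoplasmic actin gene Actb, which every cell type expresses, had a narrower range, with 13.16 and 13.72 in ki/ki, 12.84 and 13.03 in ki/+, and 13.05 and 13.17 in wild type.

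Of 10 listed regulators of SRF, 9 were measured and none passed in the 6-array fit, with median differences of 0.33 between ki/ki and ki/+, 0.074 between ki/ki and wild type, and -0.25 between ki/+ and wild type. In 7 of the 9 both ki/+ arrays lay below both wild type arrays, which 26.4% of all genes did. The median of ki/ki against wild type turned to -0.15 without ki/ki replicate 2, with 2 of 9 above 0, and that of ki/ki against ki/+ was 0.14. Without ki/ki replicate 1 the median of ki/ki against ki/+ was 0.53, with 7 above and 2 below 0. Some regulators were called there too, not counted because a single ki/ki array was left. The cofactor gene Mrtfa had 6.72 and 7.43 in ki/ki, 6.50 and 6.78 in ki/+, and 7.01 and 6.97 in wild type. Mrtfb had 8.53 and 8.92 in ki/ki, 8.23 and 8.56 in ki/+, and 8.64 and 8.72 in wild type. Both were highest in ki/ki replicate 2 and lowest in ki/+ replicate 1, within a span of less than 1 log2 unit. Elk3, for an ETS factor that partners SRF and a gene singled out after its values were seen, spanned more, with 8.66 and 10.12 in ki/ki, 7.69 and 8.26 in ki/+, and 8.96 and 9.10 in wild type. The Elk3 difference was 1.42 (SE 0.46, limma adjusted p = 0.435) between ki/ki and ki/+ and -1.06 (SE 0.46, adjusted p = 0.490) between ki/+ and wild type.

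A list of 22 further YAP targets had 20, 15 and 2 members above 0 in the 3 comparisons, with median differences of 0.53 between ki/ki and ki/+, 0.27 between ki/ki and wild type, and -0.52 between ki/+ and wild type, and none passed in limma's 6-array fit. Leaving out ki/ki replicate 2 turned the median of ki/ki against wild type to -0.18, with 5 above and 17 below 0, and with the feeder covariate that of ki/+ against wild type turned to 0.12 and that of ki/ki against ki/+ to -0.089. Leaving out replicate 1 of ki/ki instead, the median was 0.84 in ki/ki against ki/+ and 0.53 in ki/ki against wild type. Genes of this list were also called in these comparisons, not counted here because a single ki/ki array was left. With either ki/ki array left out, limma called 3 of 22 lower in ki/+ against wild type, where 2.40% of all probe sets were called lower. Axl, a receptor tyrosine kinase gene also used by fibroblasts, had 8.73 and 10.71 in ki/ki, 7.48 and 8.54 in ki/+, and 9.32 and 9.51 in wild type. Amotl2, whose product holds YAP in the cytoplasm, had 9.63 and 10.27 in ki/ki, 8.96 and 9.01 in ki/+, and 9.82 and 9.95 in wild type. Both had their ki/ki arrays on either side of wild type and their ki/+ arrays below it. Lats2, for a Hippo kinase that YAP induces as feedback, had 7.22 and 7.92 in ki/ki, 6.92 and 7.03 in ki/+, and 6.91 and 7.21 in wild type. Nuak2, for a kinase of the AMPK family, went another way, with 7.82 and 7.37 in ki/ki, 7.86 and 7.47 in ki/+, and 7.05 and 7.22 in wild type, all 4 knock-in arrays above wild type. Its differences to wild type were 0.47 (SE 0.22, limma adjusted p = 0.608) in ki/ki and 0.53 (SE 0.22, adjusted p = 0.471) in ki/+.

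Of 15 listed genes of the Hippo pathway itself, 14 were measured, with median differences of 0.24 between ki/ki and ki/+, 0.082 between ki/ki and wild type, and -0.18 between ki/+ and wild type, and none passed in the 6-array fit. For ki/ki against wild type the median without ki/ki replicate 2 turned to -0.074, with 5 above and 9 below 0. Without ki/ki replicate 1 it was 0.32, and the median of ki/ki against ki/+ was 0.26. In these comparisons too limma called genes of the list, not counted because a single ki/ki array was left. With either ki/ki array left out, limma called 2 of 14 lower in ki/+ against wild type, where 2.40% of all probe sets were called lower. Yap1 had 10.30 and 10.44 in ki/ki, 10.48 and 10.66 in ki/+, and 10.81 and 10.76 in wild type, below wild type in all 4 knock-in arrays. Wwtr1, which encodes TAZ, had 8.95 and 9.78 in ki/ki, 8.49 and 8.46 in ki/+, and 8.80 and 8.97 in wild type. Their differences between ki/ki and wild type were -0.42 (SE 0.15, limma adjusted p = 0.490) and 0.48 (SE 0.27, adjusted p = 0.676). Tead2 had 8.88 and 8.54 in ki/ki, 8.93 and 8.61 in ki/+, and 9.22 and 9.05 in wild type, and Tead1 had 9.93 and 10.01 in ki/ki, 8.94 and 9.46 in ki/+, and 9.46 and 9.71 in wild type. Tead2 thus lay below wild type in all knock-in arrays, and Tead1 above it in ki/ki. Tead3 and Tead4 differed from wild type by at most 0.14 in the mean of either knock-in genotype.

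**Figure D4:**
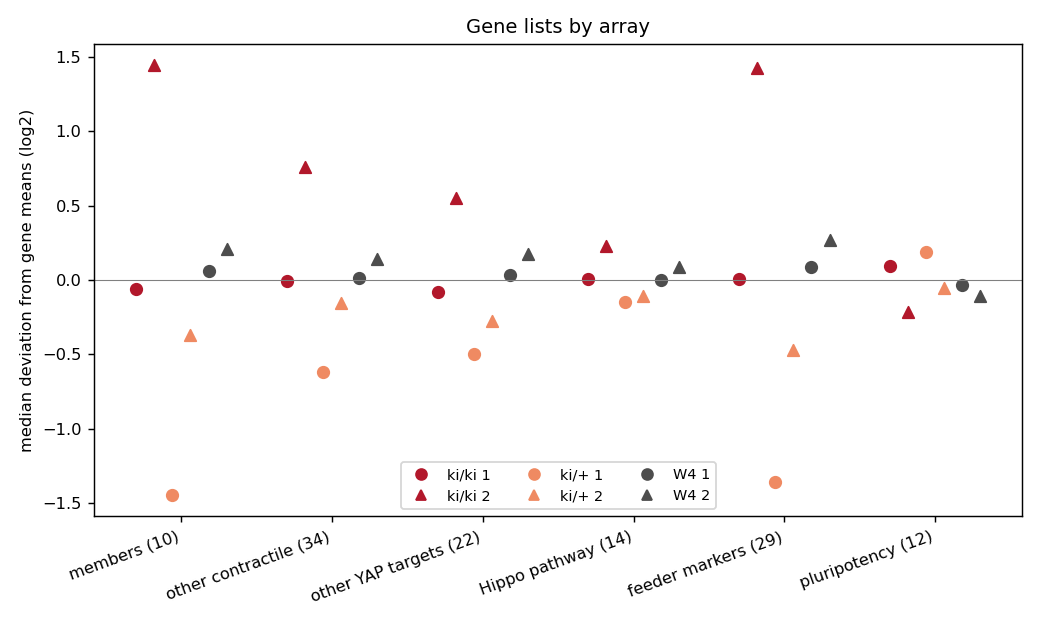
Median deviation from the gene means (log2, vertical axis) of each gene list on the 6 arrays, with the number of measured genes in brackets (horizontal axis). Circles are replicate 1 and triangles replicate 2. The members and the feeder markers span from about -1.4 to 1.4, the further contractile genes from -0.62 to 0.76, the further YAP targets from -0.50 to 0.55, and the pathway genes and pluripotency genes stay within 0.23 of 0.

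Likeness to a member was measured as the root mean square difference, over the 6 arrays, between 2 genes' deviations from their own means. Among the genes that are not members, those nearest Acta2 were Dcn at 0.039 log2 units, for the matrix proteoglycan decorin, then Gm2115 at 0.050, Ccnd2 at 0.066, for cyclin D2, Col4a1 at 0.076, for a basement membrane collagen, and Bgn at 0.087, for the proteoglycan biglycan. Dcn and Bgn stand on the feeder marker list. Dcn had 9.27 and 10.59 in ki/ki, 7.73 and 8.73 in ki/+, and 9.25 and 9.44 in wild type. Of the members Tagln was nearest to Acta2 at 0.088, followed by Tpm1 at 0.18 and Ccn2 at 0.20, and Srf was farthest at 0.80. Placed among the non-members by this measure, Tagln ranked 6, Tpm1 43, Ccn2 56, Cnn1 422 and Srf 3314. Nearest to Ccn2 were Epb41l3 at 0.036, for a membrane skeleton protein, the interferon-induced gene Ifi202b at 0.039, the feeder marker Fap at 0.064, the caspase gene Casp8 at 0.081 and the YAP target Myof at 0.082. Among the members Ccn1 was nearest to Ccn2 at 0.18 and Acta2 next at 0.20, which ranked 38 and 67 when placed among the non-members. The YAP target Ankrd1 lay farther off, at 0.45 and rank 824. Cnn1 ranked 1008, and Srf was farthest at 0.68 and rank 3808.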

How the data were processed

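Per the series' design text the authors normalized the arrays with GCRMA and quantile normalization and checked them with simpleaffy. The submitters' processing notes name limma, and no version is stated there. The deposited values are linear intensities, one per probe set and array. Another table repeats these 6 columns (largest difference 0) beside 6 columns of another series, which were not used.

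Intensities were taken to log2, 64 control probe sets were dropped, and 37950 probe sets with a log2 above 4 on 2 or more arrays were kept. Gene symbols came from the supplied platform table. Genotypes were compared with limma 3.58.1 (R 4.3.3) in 1 fit to all 6 arrays, genotype being the only term (3 residual and 3.57 prior degrees of freedom). The Benjamini-Hochberg adjustment ran over all kept probe sets, with 0.05 as the threshold. The code was tested on simulated data.

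The members and lists were chosen with earlier results of these data known, and no p was adjusted over a list. Genes named are all members, those picked by name from each list, and the 5 genes most like Acta2 and Ccn2. Alternatives were a repeated quantile normalization, dropping the filter or raising it to log2 6, a trended robust prior, fitting only the 4 arrays compared, a replicate block, leaving out each array, a feeder covariate, array weights, and averaging each gene's probe sets.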

Additional observations from a re-analysis of the deposited data

How the results depend on the processing

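The count of member probe sets passing limma's threshold was 0 in all 3 comparisons, and the arrays in the fit changed it. Leaving out single arrays gave 0 to 5 member probe sets for ki/ki against wild type (0 to 1796 of all probe sets), 0 to 3 for ki/+ against wild type (0 to 1282) and 0 to 16 for ki/ki against ki/+ (0 to 4996). The highest counts came without ki/ki replicate 1, and those of ki/+ against wild type without either ki/ki array. For ki/+ against wild type, only the 4 arrays compared gave 3 of 1282, the same as with either ki/ki array left out. A lone ki/ki array adds nothing to the spread, so these are the same fit. Array weights gave 5 of 2172. With single arrays left out, the median over the members ran from -0.12 to 1.31 for ki/ki against wild type, from -1.44 to -0.42 for ki/+ against wild type, and from 0.85 to 2.40 for ki/ki against ki/+. Without single arrays, differences between ki/ki and wild type ran from -0.083 to 1.28 for Acta2, -0.032 to 1.502 for Tagln, -0.17 to 2.46 for Cnn1, -0.29 to 1.78 for Myl9, -0.57 to 1.08 for Tpm1 and -0.47 to 0.82 for Tpm2, turning without ki/ki replicate 2, as did Srf between ki/ki and ki/+, from -0.036 to 0.23.

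Holding the feeder median constant as a covariate, the members' median was 0.16 for ki/+ against wild type and -0.16 for ki/ki against ki/+. Directions turned there, to -0.15 for Myl9, -0.35 for Tpm1 and -0.25 for Tpm2 in ki/ki against wild type. In ki/+ against wild type they turned to 0.15 for Tagln, 0.79 for Cnn1, 0.60 for Myl9, 0.17 for Ccn1, 0.39 for Ccn2 and 0.80 for Ankrd1. In ki/ki against ki/+ they turned to -0.045 for Tagln, -0.50 for Cnn1, -0.74 for Myl9, -0.27 for Tpm1, -0.080 for Tpm2, -0.17 for Srf, -0.25 for Ccn2 and -0.15 for Ankrd1.

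The replicate numbers pair no samples by the labels. Deviations of same-numbered arrays correlated across probe sets by -0.039 (ki/ki and ki/+), 0.057 (ki/ki and wild type) and 0.14 (ki/+ and wild type). With the replicate block the count of member probe sets passing stayed at 0 in each comparison. The further normalization, both filters, the trended prior and averaging each gene's probe sets turned no member's direction. The number of arrays limits the precision.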

Other observations

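The 9 measured endoderm and mesoderm genes lay between 4.46 and 7.51 on all arrays. Their median deviations were 0.065 and -0.32 in ki/ki, -0.050 and 0.058 in ki/+, and 0.055 and 0.15 in wild type, lowest in the array where the contractile genes were highest. Their median differences were -0.14 between ki/ki and ki/+, -0.23 between ki/ki and wild type, and -0.11 between ki/+ and wild type, and none passed limma's threshold in the 6-array fit. Without ki/ki replicate 2 the median of ki/ki against ki/+ turned to 0.13, with 6 above and 3 below 0, and that of ki/ki against wild type was -0.060. With the feeder covariate the median of ki/ki against ki/+ turned to 0.21, and without ki/ki replicate 1 it was -0.29. Among the 29 feeder markers Mgp, which encodes matrix Gla protein and was singled out after its values were seen, was lower in ki/ki replicate 2 than in replicate 1, at 11.11 and 10.67 in ki/ki, 9.62 and 10.35 in ki/+, and 10.93 and 11.21 in wild type.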
